A study of Mus musculus with 12 samples.

Results

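The miR-379 to miR-410 cluster is a run of miRNA genes in the imprinted Dlk1-Dio3 region of mouse chromosome 12. Its members were taken by miRNA name, from miR-379 at one end to miR-410 and the adjoining miR-3072 at the other, with both mature arms of each hairpin and without the opposite-strand miR-299b. This gave 74 mature miRNAs from 37 hairpins, out of 1900 mature miRNAs measured. Small RNA was sequenced from gastrocnemius muscle, a large calf muscle, of male C57BL/6 mice. The 12 libraries were 6 from young animals (6 months) and 6 from aged animals (24 months), with no treatment or genetic change in either group. The comparison asked which miRNAs of skeletal muscle differ in level between the ages.

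A miRNA is cut from a hairpin precursor, which can release one mature strand from its 5′ side (5p arm) and one from its 3′ side (3p arm). A mature miRNA lowers the output of mRNAs that pair with its seed, the short stretch near its 5′ end. The Dlk1-Dio3 region is imprinted: its noncoding RNAs and miRNAs are made from the maternal chromosome, and the protein-coding genes Dlk1, Rtl1 and Dio3 from the paternal one. The cluster is best known from brain, where miR-134 and miR-381 act in dendrite growth, and in muscle the region is a target of the transcription factor MEF2A during regeneration.

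All 37 hairpins lay on the plus strand of chromosome 12 within 38.9 kb, at chr12:109709060-109747960 of the mm10 assembly (GRCm38). The last 13 hairpins lay within the noncoding gene Mirg (chr12:109729764-109749460, plus strand), 9 of them in its exons and 4 in its introns. The first 24 lay before Mirg and in no other annotated gene that was considered. Mature sequences of 70 of the 74 members were found in RefSeq (GRCm38), and are given 5′ to 3′ with the seed (bases 2 to 8) in capitals. The first set holds the 10 members with the highest mean level in young muscle, which carry most of the measurement, in order of level.
miR-411-5p: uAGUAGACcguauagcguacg
miR-541-5p: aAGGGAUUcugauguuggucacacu
miR-410-3p: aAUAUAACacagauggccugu
miR-300-3p: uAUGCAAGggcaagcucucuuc
miR-381-3p: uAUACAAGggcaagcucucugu
miR-379-5p: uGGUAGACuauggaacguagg
miR-369-3p: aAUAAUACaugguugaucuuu
miR-409-3p: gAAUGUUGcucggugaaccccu
miR-377-3p: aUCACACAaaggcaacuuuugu
miR-409-5p: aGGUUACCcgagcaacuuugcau

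These 10 members had 10 different seeds. Their mature positions ran from miR-379-5p at chr12:109709065-109709085 and miR-411-5p at chr12:109710190-109710210 to miR-541-5p at chr12:109742422-109742446, in an intron of Mirg, and miR-410-3p at chr12:109743764-109743784, in an exon of Mirg. miR-300-3p and miR-381-3p were near copies, which differed at 3 of 22 bases, 1 of them in the seed. The second set shows members that share a seed or most of their sequence with a first-set member, a miR-376b arm or each other. They are examples of such pairs rather than all of them. The set also holds the 5p arm of miR-369, whose balance with its 3p arm is described further on.
miR-379-3p: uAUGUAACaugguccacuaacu
miR-411-3p: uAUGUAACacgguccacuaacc
miR-1193-5p: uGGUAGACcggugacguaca
miR-376b-5p: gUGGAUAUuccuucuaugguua
miR-376c-5p: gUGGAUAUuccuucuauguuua
miR-376b-3p: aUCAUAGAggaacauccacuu
miR-376a-3p: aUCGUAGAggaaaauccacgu
miR-369-5p: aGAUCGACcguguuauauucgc

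The 70 sequences held 65 distinct seeds, and 5 seeds were each shared by a pair of members. miR-379-3p and miR-411-3p shared the seed AUGUAAC and differed at 2 of 22 bases, and miR-376b-5p and miR-376c-5p shared UGGAUAU and differed at 1 of 22. miR-1193-5p shared the seed of miR-379-5p but had no read in any library. Reads of such near copies can be split or exchanged by the mapping, so the separate levels of miR-300-3p and miR-381-3p and of the miR-376 arms are uncertain. The members were 19 to 25 bases long, and their median GC content was 46.4%, beside 52.2% over 1679 RefSeq mature miRNAs of the mouse. The seed of miR-411-5p was also held by miR-7229-5p outside the cluster, and that of miR-410-3p by miR-344d-3p and miR-344e-3p.

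Depth differed widely between libraries and set how many cluster miRNAs could be seen. Young libraries held an estimated 198328 to 6239242 miRNA reads and aged libraries 123036 to 7514877. Young replicate 6 and aged replicate 3 were the deep libraries, and aged replicate 5 was the shallowest. Without those 3, the young libraries held 198328 to 550265 reads and the aged ones 1244473 to 1465928, so that depth moved with age. Levels are given as FPKM, which scales reads by the length of the miRNA and the mapped reads of the library, and in which 1 read of a miRNA of 22 bases was worth 5.86 to 377 FPKM. Reads were not tagged as single molecules, so read numbers and floors cover counting error only.

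Of the 74 members, 51 had a read in at least 1 library and 23 had none, which allows up to 3 reads, or 0.142 RPM (reads per 1000000 estimated miRNA reads), over all libraries. The members without a read included both arms of miR-1197, miR-654, miR-544 and miR-3072, and also miR-541-3p, miR-410-5p and miR-494-3p. The number of members above 0 ran from 8 in aged replicate 5 to 44 in young replicate 6. Only 5 members were above 0 in all 12 libraries, and 30 were above 0 in at least 5 and entered the test. Another 21 were read but not tested, with 1 to 8 reads each over all libraries, 7 of them with 1 read. In 3 of the 30 (miR-369-5p, miR-376b-5p and miR-380-3p) only 1 young library was above 0, and the 5 aged libraries of miR-369-5p would have met the filter by themselves. The reverse held for miR-369-3p and miR-377-3p, each above 0 in 5 young and 4 aged libraries. Their young libraries would have met the filter by themselves. Of the 30, 14 were above 0 in more aged than young libraries, 5 in more young ones and 11 in equal numbers.

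A few miRNAs carried the output of the cluster in muscle. All members together had 5445 estimated reads over the 12 libraries, and miR-411-5p alone had 2625 of them, or 48.2%. With miR-541-5p (1012 reads), miR-410-3p (403), miR-300-3p (342), miR-381-3p (301) and miR-379-5p (186) the best-read 6 members held 89.4%. The other 68 members shared 576 reads. The miRNAs of the cluster were modest among muscle miRNAs: by mean FPKM in young muscle miR-411-5p ranked 87 of all measured, miR-541-5p 138 and miR-379-5p 216.

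miR-411-5p was the highest member in 12 of 12 libraries, and its range lay above that of miR-541-5p at both ages. miR-541-5p was next in 11 of 12 libraries, the exception being aged replicate 6, where miR-410-3p was at 1113 FPKM and miR-541-5p at 867. In young muscle the ranges of miR-541-5p and miR-410-3p did not overlap, but the gap was narrower than 1 read. The lowest miR-541-5p value was 1596 FPKM, from 12 reads in replicate 3. The highest miR-410-3p value was 1574 FPKM, from 7 reads in replicate 4. The ranges of miR-410-3p, miR-300-3p and miR-381-3p overlapped, so that the order of these 3 was not separated from the spread between libraries. miR-411-5p was 3.88 ± 0.913 (SD, n = 6) times as high as miR-541-5p in young and 3.16 ± 0.653 times in aged muscle.

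One arm dominated most of the well-read hairpins. Of the 37 hairpins, 33 had a read, and 16 had at least 20 reads over all libraries. In 11 of these 16 at least 90% of the reads came from one arm. The 5p arm gave more reads in 7 of the 16, among them miR-411 (2625 of 2645 reads), miR-541 (1012 of 1012) and miR-379 (186 of 202). The 3p arm gave more in 9, among them miR-410 (403 of 403), miR-300 (342 of 343) and miR-381 (301 of 303). Nearly even in these pooled reads were miR-376b, with 17 reads of the 5p and 14 of the 3p arm, and miR-299a, with 16 and 19. Pooled reads weigh the deep libraries most: young replicate 6 gave 1802 and aged replicate 3 gave 1658 of the 5445 reads of the cluster. By mean FPKM the arms of miR-376b were uneven, at 5.80 (5p) and 88.3 (3p) in young and 32.1 and 19.7 in aged muscle. The values of miR-299a-3p and miR-299a-5p went in step with those of the opposite-strand miR-299b-5p and miR-299b-3p in each library where they were read (7 and 5 libraries), so the reads of miR-299a and miR-299b cannot be told apart.

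**Figure D1:**
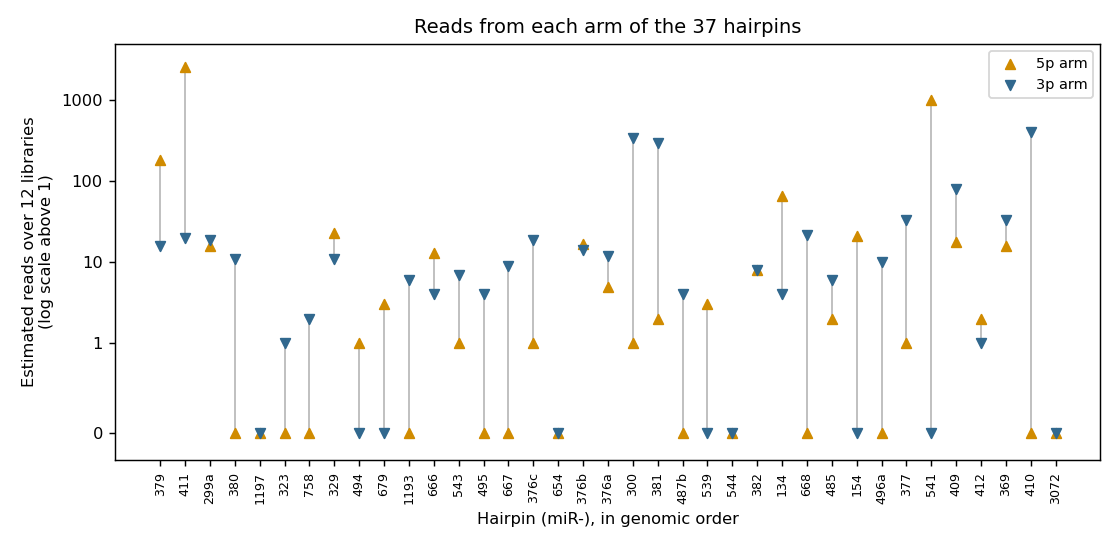
Estimated reads over the 12 libraries from the 5p and the 3p arm of each of the 37 hairpins, in genomic order along the x axis, on a y axis that is logarithmic above 1 read. The 5p arm of miR-411 stands highest with 2625 reads, and 4 hairpins (miR-1197, miR-654, miR-544 and miR-3072) have no read from either arm.

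With age, the best-read member, miR-411-5p, had lower levels in aged than in young muscle, but the difference did not pass the adjusted threshold. In young muscle its lowest, median and highest levels were 6165, 7307 and 8540 FPKM, from 36 to 845 reads. In aged muscle they were 3743, 4822 and 6889 FPKM, from 10 to 805 reads. Of the 6 aged libraries, 4 lay below the lowest young one, and 6 lay below the young median. Aged replicates 1 (6889) and 4 (6339) lay within the young range, so the groups overlapped. Of the deep pair, young replicate 6 was at 6165 FPKM and aged replicate 3 at 4939. The means were 7397 ± 835 and 5095 ± 1270 (SD, n = 6 each), and in the limma fit the log2 change was -0.56 (SE 0.16, 95% interval -0.90 to -0.22, unadjusted p = 0.00220, adjusted p = 0.0663). This put the aged level at 67.7% of the young one (95% interval 53.6% to 85.7%). In bulk muscle, fewer cells of a type and less RNA per cell cannot be told apart. Median-of-ratios scaling gave an adjusted p of 0.0241 for miR-411-5p and quantile normalization 0.0469, both by limma. Leaving out aged replicate 1 (0.0272) or young replicate 6 (0.0497) also brought the limma adjusted p under 0.05. In the other alternatives it stayed above 0.05. Among these were limma with depth as a covariate (0.127) or without a variance trend (0.174), the exact permutation test (0.155) and voom (0.181).

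The other 5 best-read members also had fitted changes below 0, none of them separated from the spread between libraries. Young levels of miR-541-5p lay between 1596 and 2369 FPKM (median 1925) and aged ones between 867 and 2210 (median 1669), and the groups overlapped, with 2 aged libraries below the young range. Its log2 change was -0.27 (SE 0.24, 95% interval -0.76 to 0.21, limma adjusted p = 0.679), and it was -0.10 without aged replicate 6 and -0.09 with quantile normalization. miR-410-3p, which with miR-433 represses the WNT inhibitor Sfrp2 in muscle cells, lay between 787 and 1574 FPKM (median 1178) in young muscle and between 488 and 1585 (median 946) in aged muscle. Its highest aged value was that of the shallowest library, from 4 reads, and the log2 change was -0.31 (SE 0.29, 95% interval -0.92 to 0.30, limma adjusted p = 0.711), or -0.14 without aged replicate 2 and -0.13 with depth as a covariate.

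The near copies miR-300-3p and miR-381-3p had overlapping groups as well. The young libraries had 458 to 1458 FPKM of miR-300-3p (median 838) and the aged ones 333 to 885 (median 663), and its fitted log2 change was -0.32 (SE 0.34, adjusted p = 0.728 by limma), and about -0.15 without young replicate 5 or aged replicate 2. They had 596 to 1176 FPKM of miR-381-3p (median 633) against 377 to 787 (median 531), with 3 aged libraries below the lowest young one and a fitted change of -0.46 (SE 0.34, adjusted p = 0.596 by limma). miR-379-5p, at the first end of the cluster, was the least read of these members. Its levels were 160 to 676 FPKM (median 459) in young muscle and 0 to 516 (median 304) in aged muscle, and its log2 change was -0.62 (SE 0.56, 95% interval -1.79 to 0.54, limma adjusted p = 0.693). Its value of 0 came from aged replicate 5, where a single read would be worth more than the aged median of this miRNA. Without that library the log2 change was -0.11, and with a pseudocount of 1 FPKM it was -1.52.

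**Figure D2:**
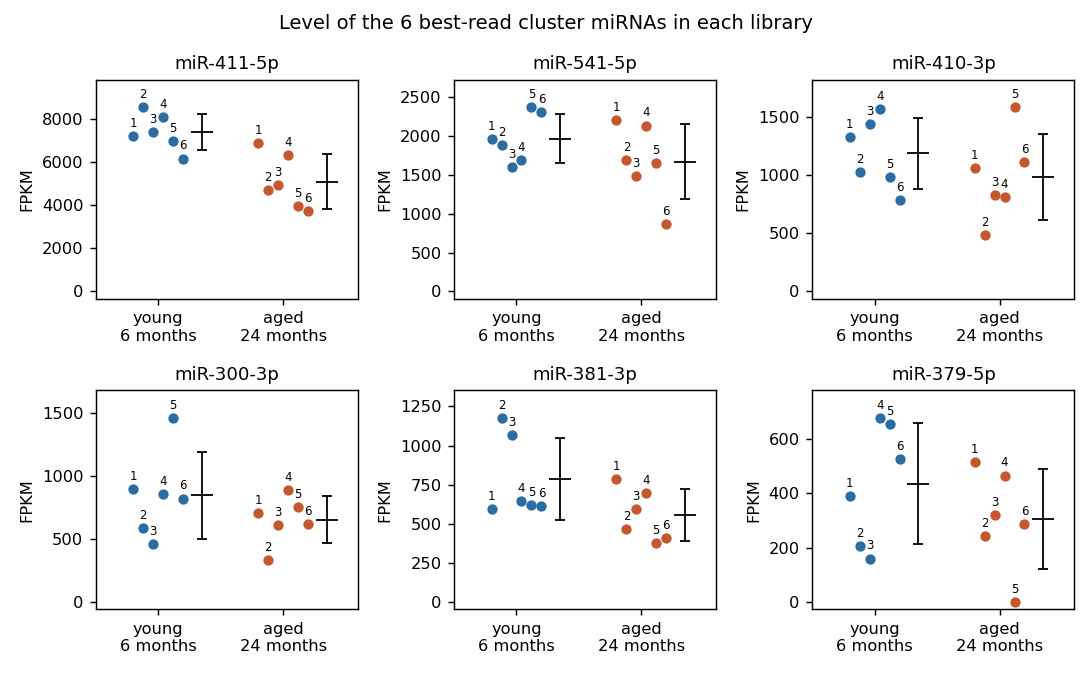
FPKM of the 6 best-read members in each of the 6 young and 6 aged libraries (points, 1 panel a miRNA, linear y axis in FPKM), with the mean and SD of each age beside them. The aged points of miR-411-5p reach from 3743 to 6889 and overlap the young points at 6165 to 8540, and in every panel the groups overlap.

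The aged libraries differed in how far they stood below young muscle over these 6 members. Aged replicates 2, 3 and 6 were below the young mean for 6 of 6 members, aged replicate 5 for 5, and aged replicates 1 and 4 for 3 each. Below the lowest young value were 4 members in aged replicate 2, 3 each in aged replicates 5 and 6, 2 in aged replicate 3, and 0 in aged replicates 1 and 4. The members share their libraries, so these counts are not independent of each other.

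Across the 30 tested members, changes leaned below 0 without a member passing the adjusted threshold. The fitted change was below 0 in 21 members (70%) and above 0 in 9, beside 44.6% below 0 over all 482 miRNAs tested. The median log2 change was -0.24, with a range of -1.60 to 0.62, beside a median of 0.07 over all 482. The 482 were better read than the members, so they are not a like background. The median over miRNAs of the mean FPKM was 53.05 for the 30 members and 300.9 for all 482. More than 50 reads were held by 8 of the 30 and by 304 of the 482. The median of the members was -0.05 without young replicate 3, -0.14 without young replicate 1 or aged replicate 2, -0.16 without aged replicate 5 and -0.35 without aged replicate 1. It was -0.06 with a pseudocount of 1 FPKM or of 482 FPKM, and -0.04 over the 51 members read when no filter was applied. By limma, 0 of 30 had an adjusted p under 0.05 (2.9% of all tested), and 3 had an unadjusted p under 0.05, all lower in aged muscle (7.26% of all tested in that direction), namely miR-411-5p, miR-369-3p and miR-377-3p. On the same filter, a voom fit of the recovered reads called 1, miR-369-3p (2.9% of all tested). An exact permutation test per miRNA gave 0 after adjustment and 4 with an unadjusted p under 0.05 (13.7% of all tested). In 0 of 30 members did the groups stand apart with every aged library below every young one (2.28% of all tested) or above (0.415%).

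By the thresholds that the study used (an unadjusted p under 0.05 and a change of at least 1.5-fold) limma found 2 members lower, miR-369-3p and miR-377-3p (5.6% of all tested), and 0 higher (4.15%), beside 9.75% of all tested in either direction. The fold change of miR-411-5p was just under that limit. With a pseudocount of 1 FPKM the same thresholds found 1 member, miR-369-5p, which was higher in aged muscle, and neither of these 2. The 6 best-read members all had changes below 0, from -0.62 to -0.27, with a median of -0.39. Of the 24 rarer ones, with 7 to 80 reads each, 15 had changes below 0 and 9 above, with a median of -0.17. The scale with its pseudocount understates changes of rare members, and the difference between these medians was not tested.

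**Figure D3:**
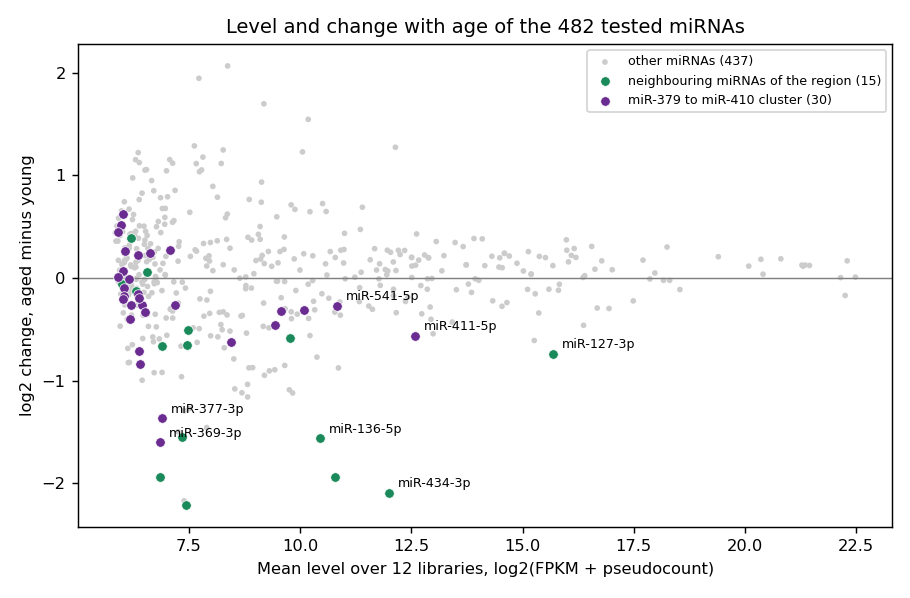
Log2 change with age (y axis, aged minus young) against mean level over the 12 libraries as log2(FPKM + 48.2) (x axis) for the 482 tested miRNAs. The 30 cluster members and the 15 tested neighbouring miRNAs of the region are marked in separate colours. Of the cluster members 21 lie below 0 and 9 above, and the lowest of them is miR-369-3p at -1.60. The lowest neighbour is at -2.21.

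miR-369-3p, which is known for acting on AU-rich elements of mRNAs, had the lowest fitted change of the cluster, from few reads. In young muscle it was at 549, 205, 160, 0, 218 and 117 FPKM in replicates 1 to 6, and in aged muscle at 0, 34.8, 12.3, 38.9, 0 and 36. The aged libraries all lay below the young median of 182 FPKM, and only the young library without a read kept the groups from standing apart. Depth limits this comparison. In young replicates 1 to 5, 1 read of a miRNA of 22 bases was worth 74.5 to 214 FPKM, more than every aged value. Any read there therefore placed the library above all aged ones. In aged replicate 5, which had no read, 1 read would have been worth about 377 FPKM, more than the young median. Over all libraries there were 28 reads in young muscle, 16 of them in replicate 6, and 5 in aged muscle, or 3.44 and 0.385 RPM. The log2 change was -1.60 (SE 0.52, 95% interval -2.67 to -0.53, unadjusted p = 0.00514, limma adjusted p = 0.0996). Without young replicate 4, the young library that had no read, the change was -2.01 and the limma adjusted p was 0.0178.

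miR-377-3p, known to raise fibronectin in kidney cells, had a similar profile. Its reads in young replicates 1 to 6 were 3, 3, 0, 1, 2 and 15, and in aged replicates 1 to 6 they were 1, 3, 4, 1, 0 and 0. In FPKM the young libraries lay at 0 to 294 (median 211) and the aged ones at 0 to 99.7 (median 25.4), and all aged libraries lay below the young median. The log2 change was -1.36 (SE 0.51, 95% interval -2.42 to -0.30, unadjusted p = 0.0138, limma adjusted p = 0.196). Both results depend on how a library without a read is scored: with a pseudocount of 1 FPKM the log2 change was -3.23 for miR-369-3p (limma adjusted p = 0.468) and -2.81 for miR-377-3p (limma adjusted p = 0.534). These changes were larger in size, but their unadjusted p in the limma fit, 0.0973 and 0.147, was no longer under 0.05.

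Other rare members went either way. From these same libraries the study listed miR-369-5p among the miRNAs higher in aged muscle and miR-411-5p among those lower. miR-369-5p was read in 1 young library, replicate 6 with 4 reads, and in 5 aged libraries with 1, 1, 7, 2 and 1 reads. Its level was 0 in the other 5 young libraries, where 1 read would have been worth 74.5 to 214 FPKM, more than its level in every aged library. Its log2 change was 0.62 (SE 0.31, 95% interval -0.02 to 1.27, limma adjusted p = 0.398). With zeros kept as values on the log2 scale the change was 3.62 (limma adjusted p = 0.266), so its size depends on how a library without a read is scored. At this depth a level like that of the aged libraries could not have been told from 0 in those young ones. miR-376b-5p had the same form, with 5 reads in young replicate 6 and none in the other young libraries, and its fitted change was 0.52 (SE 0.32, adjusted p = 0.494 by limma).

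miR-409-3p and miR-409-5p, from a hairpin in Mirg, were read unevenly. The young libraries reached from 0 to 458 FPKM of miR-409-3p (median 184) and the aged ones from 0 to 380 (median 71.3), and the fitted change was -0.26 (SE 0.64, adjusted p = 0.911 by limma). They reached from 0 to 437 and from 0 to 197 FPKM of miR-409-5p, with a change of -0.33 (SE 0.59, adjusted p = 0.870 by limma). The direction of both turned with the pseudocount, and neither has a direction that these libraries can give.

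The balance of 5p and 3p arms could be tested in 7 cluster hairpins, in which each arm was read in 5 libraries or more. The largest difference among them was in miR-369, whose 3p arm had the higher mean level in young muscle and whose 5p arm had it in aged muscle. Its log2 ratio of 5p to 3p was -1.95 ± 1.25 in young and 0.273 ± 0.325 in aged muscle (SD, n = 6 each), a change of 2.23 (SE 0.50, 95% interval 1.13 to 3.33, unadjusted p = 0.000875, adjusted p = 0.0569 by limma over 130 hairpins). For miR-376b it went from -1.01 ± 1.26 to 0.228 ± 0.593, a change of 1.23 (SE 0.54, unadjusted p = 0.0414, adjusted p = 0.323 by limma). By limma 0 of the 7 had an adjusted p under 0.05 (0.769% of the 130 hairpins) and 2 an unadjusted p under 0.05 (13.1%). The changes of the other 5 ran from -0.37 for miR-411 to 0.74 for miR-299a. The 5p arm of miR-369 had no read in 5 of 6 young libraries, so the pseudocount sets that arm of the young ratio there, and the change was 6.87 with a pseudocount of 1 FPKM and 0.51 with one of 482 FPKM. Over all alternatives the limma adjusted p of the miR-369 ratio ran from 0.00432 (without young replicate 4, which had no read of miR-369-3p) to 0.143 (without young replicate 3), and it was 0.0340 without young replicate 6 and 0.105 with depth as a covariate.

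Fitted changes below 0 were seen along the whole cluster, before Mirg and within it. Of the 18 tested members before Mirg, 13 had a change below 0 (median -0.20), and of the 12 within Mirg, 8 had (median -0.27). The hairpins before Mirg gave 3699 reads, 67.9% of the cluster's, and those within it 1746. The best-read 6 members came from both ends and the middle: miR-379 and miR-411 lie within the first 1.12 kb, miR-300 and miR-381 at 15.3 and 17.8 kb, and miR-541 and miR-410 at 33.4 and 34.7 kb from the start of miR-379. Members of one hairpin share a precursor, and the medians are descriptions with no test.

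**Figure D4:**
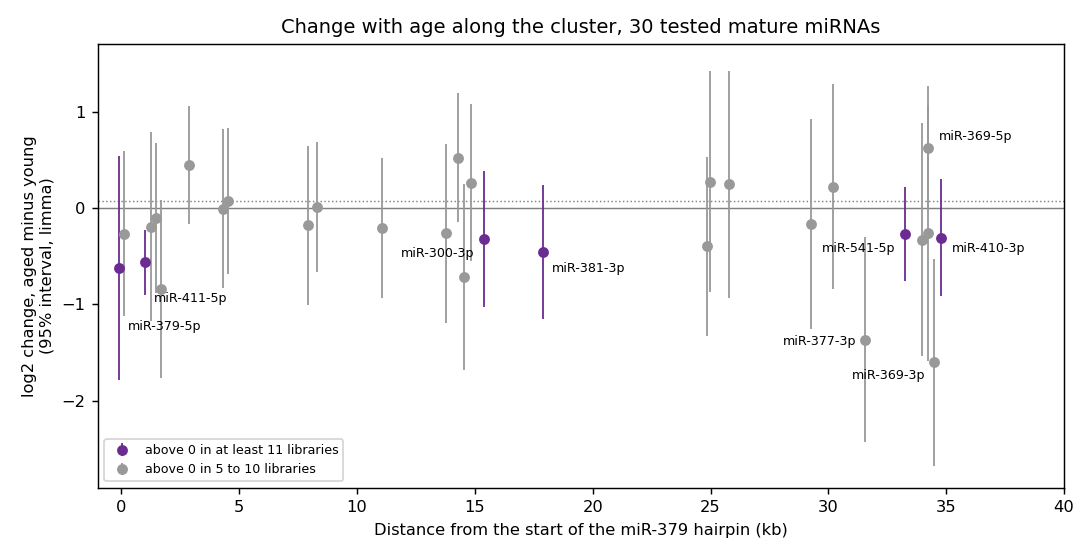
Log2 change with age (y axis, points with 95% intervals from limma) of the 30 tested members against the distance of their hairpin from the start of the miR-379 hairpin in kb (x axis), with a dotted line at 0.07, the median of all 482 tested miRNAs. The interval of miR-411-5p, at 1.12 kb, runs from -0.90 to -0.22, and those of miR-369-3p and miR-377-3p also lie below 0.

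As a share of all miRNA signal, the cluster was small and lower in most aged libraries. Its summed FPKM was 0.0335% ± 0.00264 of the library in young and 0.0237% ± 0.00570 in aged muscle (SD, n = 6 each), so that the aged mean was 71.0% of the young one. The young libraries ran from 0.0292% to 0.0361%. Of the aged libraries, replicate 1 at 0.0338% lay within that range, replicate 4 was at 0.0269%, and the other 4 lay between 0.0191% and 0.0224%, so that 5 of 6 were below the lowest young library. Among the young libraries the deepest, replicate 6, had the lowest share.

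miR-411-5p made up 51.7% ± 3.09 of the cluster's summed FPKM in young and 48.9% ± 4.82 in aged muscle, and the 6 best-read members together 88.4% ± 3.93 and 89.1% ± 2.37. Without miR-411-5p the summed FPKM of the other members was 6894 ± 417 in young and 5281 ± 1048 in aged muscle, 76.6% of the young mean. No test is given for these sums over members.

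**Figure D5:**
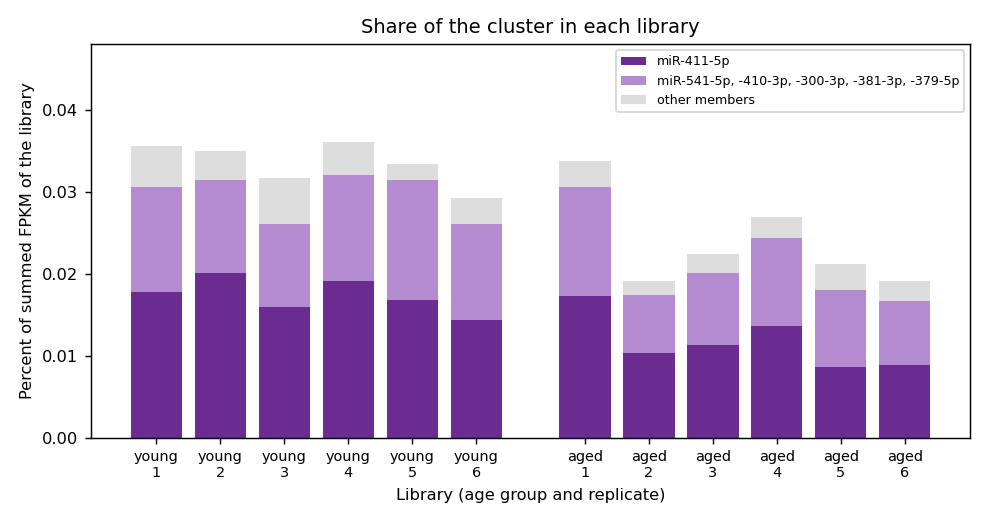
Summed FPKM of the 74 cluster members as a percent of the summed FPKM of each library (y axis, from 0) in the 6 young and 6 aged libraries (x axis). Aged replicate 1 reaches 0.0338%, within the young range of 0.0292% to 0.0361%, and the other 5 aged libraries stand below it.

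The neighbouring miRNAs of the same imprinted region, from the Meg3 side through the group that lies opposite Rtl1, included members that passed the adjusted threshold. Of the 33 mature miRNAs listed, 15 were tested, 13 had changes below 0, and 6 were lower with an adjusted p under 0.05 by limma (2.28% of all tested in that direction), with a median log2 change of -0.66. miR-127-3p, which lies antisense to Rtl1, went from 67770 ± 7886 to 40910 ± 6745 FPKM (change -0.74 on the log2 scale, SE 0.12, limma adjusted p = 0.000256). Changes of miR-136-5p and miR-434-3p were -1.56 and -2.09 (limma adjusted p = 0.000122 and 9.85e-06).

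miR-411-5p was compared directly with miR-127-3p as a ratio within each library. The log2 ratio was -3.19 ± 0.130 in young and -3.01 ± 0.296 in aged muscle (SD, n = 6 each), a difference of 0.17 with an exact two-sided permutation p of 0.214 over 924 splits, of which the smallest possible p is 0.00216. A difference between the change of miR-411-5p and that of miR-127-3p was therefore not detected. Without aged replicate 5, where miR-411-5p had 10 reads, the difference was 0.26 and the exact permutation p was 0.0498. The ratio covers these miRNAs only, and miR-127-3p had the smallest change of the 3 neighbours named. As sums of FPKM, the aged mean was 53.8% of the young one for the neighbours and 72.6% for the cluster, which was not tested.

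Markers of other tissues were looked at because the cluster is strong in brain and nerve. The muscle miRNAs were present, 7 of 7, with summed levels of 7101000 to 9256000 FPKM in young and 6776000 to 8404000 in aged muscle, and of them miR-206-3p rose with age (log2 change 1.54, limma adjusted p = 0.0296). The neuron and glia list was read in 10 of 10 members, summed to 10900 to 22820 FPKM (median 12890) in young and 11150 to 17550 (median 14650) in aged muscle. Most of that sum came from miR-128-3p (medians 7271 and 6972 FPKM) and miR-338-3p (4879 and 7416). Of its other members, miR-9-5p had 161 reads over all libraries (medians 332 and 286 FPKM), miR-138-5p 149 (223 and 339), miR-124-3p 52 (7.67 and 50.5) and miR-219a-5p 18 (29.2 and 30.3), while miR-383-5p had 5 reads and miR-129-5p, miR-137-3p and miR-9-3p had 3 each. The log2 changes of miR-124-3p, miR-9-5p and miR-138-5p were 0.20, 0.07 and 0.08 (limma adjusted p = 0.933, 0.990 and 0.976). Ranges of the summed levels overlapped between the ages for red blood cells (3 of 3 markers read, 5828 to 10490 and 3022 to 10510 FPKM), white blood cells (4 of 4, 8449 to 19470 and 11140 to 24900), fibroblasts (3 of 3, 32450 to 49760 and 32570 to 56510) and endothelium (2 of 2, 307700 to 455700 and 336500 to 382300). The part of these cells in the values of the cluster was not tested. With depth as a covariate in the limma fit, the median log2 change of the tested members was -0.26, beside -0.24 without it. Depth moved with age, so that fit cannot fully separate depth from age.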

How the data were processed

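Small RNA of gastrocnemius muscle was sequenced on 12 indexed libraries, 6 young and 6 aged, as the sample labels group them. According to the methods, each group came from 6 mice, reads were trimmed and mapped to mm10 with BWA, and FPKM of the mature miRNAs of miRBase 20 was computed with a Python script. The submitters' processing notes name TopHat2. Use of strand and the handling of reads that fit several places are not given in the sources used here. The authors deposited log2 FPKM, with 0 for a miRNA without a read, in 2035 rows for 1900 mature miRNAs. All of its columns were used.

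The log was undone, copies of a mature miRNA were summed, and the value of 1 read was read off the smallest steps in a library. Of 2987 values below 25 reads, 99.2% came out whole within 0.15, and 100% of the 239 among cluster members did. These reads are estimates of depth, and the depth limits every rare member.

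The fit used log2(FPKM + 48.2). The pseudocount, 48.2 FPKM, is the lowest nonzero value of a library (median of the 12). A change on this scale understates that of rare miRNAs. limma 3.58.1 (R 4.3.3; lmFit, then eBayes with trend, two-sided, no covariate) was run on the 482 miRNAs read in 5 or more libraries, with Benjamini-Hochberg adjustment at 0.05. Arm balance was fitted likewise over 130 hairpins, and the ratio to miR-127-3p was tested by exact permutation. The scripts were tested on simulated data and used Python 3.11.15, pandas 2.3.3 and NumPy 2.4.6. Positions and sequences came from RefSeq and GENCODE, both on GRCm38.

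The miRNAs named with values are those with an unadjusted p under 0.05, the 10 highest in young muscle, the arms of hairpins whose ratio had an unadjusted p under 0.05, the ends of the cluster, and miR-411-5p and miR-369-5p, which the study listed. Counts of up to 5 and the best-read 6 were named after their values were seen, as was miR-299a. The members, lists, tests and alternatives were chosen with earlier results of these data known. Alternatives changed the pseudocount, the filter, the scaling, the variance model, the treatment of zeros and copies, the replicate block and the libraries, or added depth as a covariate.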

Additional observations from a re-analysis of the deposited data

Results flagged for a closer look

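In 4 of 26 groups of 6 libraries examined (13 named cluster miRNAs at each age), 1 library stood apart by Dixon's criterion. For values without ties chance gives about 1.3, or 1 in 20, and that rate does not hold where libraries are tied at no read. Values are log2(FPKM + 48.2), on which a library without a read is at 5.59. miR-379-5p was at 5.59 in aged replicate 5, with 0 reads in the shallowest library, and at 8.19 to 9.14 in the other aged libraries. miR-409-5p was at 7.94 in aged replicate 6, from 6 reads, and at 5.59 to 6.38 in the others. In young replicate 6, the deepest young library, miR-369-5p was at 6.25 from 4 reads and miR-376b-5p at 6.38 from 5 reads, while each was at 5.59 in all the other young libraries. With those libraries tied, any read in young replicate 6 would have been flagged.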

How the results depend on the processing

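Depth limits the rare members most: in the shallowest library a miRNA of 22 bases at less than 377 FPKM would give under 1 read, and 24 of the 30 tested members had 80 reads or fewer in all. Against 0 adjusted calls among cluster miRNAs, quantile normalization gave 2 (miR-369-3p and miR-411-5p), median-of-ratios scaling 1 (miR-411-5p), voom 1 (miR-369-3p), and leaving out 1 library 0 to 1 (miR-369-3p without young replicate 4, limma adjusted p = 0.0178; miR-411-5p without young replicate 6 or aged replicate 1). Against 2 members past the study's thresholds, a pseudocount of 1 FPKM or zeros kept as values gave 1, in each case miR-369-5p and higher in aged muscle, a pseudocount of 482 FPKM or raising all values to 1 read of the shallowest library (a floor) gave 0, and median-of-ratios scaling and voom gave 4 each. Leaving out 1 library gave 2 to 3. The median change of the tested members (-0.24) was -0.06 with a pseudocount of 1 or 482 FPKM or zeros kept, -0.04 with no filter, -0.47 with voom, and -0.35 to -0.05 leaving out 1 library. It was 0 with the floor, which lies above every value of most rare members and so fixes their changes at 0. Arm calls ran from 0 to 1 leaving out 1 library (miR-369, without young replicate 4 or 6). The log2 ratio of miR-411-5p to miR-127-3p differed by 0.11 to 0.26 leaving out 1 library. The log2 change of miR-409-3p (-0.26) turned to 0.32 with a pseudocount of 1 FPKM, 0.30 with zeros kept, 0.068 without young replicate 3 and 0.03 without aged replicate 5, and ran from -0.61 to 0.068 leaving out 1 library. That of miR-409-5p (-0.33) turned to 0.31 with a pseudocount of 1 FPKM, 0.30 with zeros kept, 0.01 without young replicate 1 and 0.12 without young replicate 3, and ran from -0.65 to 0.12. The cause of these changes was not tested. miR-411-5p kept its direction under all 26 alternatives, with log2 changes of -0.66 to -0.48 and adjusted p of 0.0241 to 0.198, and miR-369-3p ranged from -3.26 to -0.09 (0.0134 to 0.904), the latter with the floor, which only 1 of its values passes. Replicate numbers did not pair the libraries: same-numbered libraries correlated at -0.188 to 0.126 in their deviations, and 0 of 6 correlated best with its own number. A fit with the replicate number as a block gave 0 adjusted calls, 2 past the study's thresholds and a ratio difference of 0.17.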
